A study of Mus musculus with 21 samples.

Results

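Pou5f1, Sox2, Nanog and Sall4, the genes of the transcription factors OCT4, SOX2, NANOG and SALL4, were taken by gene name from both expression tables of a study of mouse pluripotent cells. They are 4 of 21161 gene names in the table of cell states and 4 of 55291 names in the table of lactate doses, and each stands there once. All 21 RNA sequencing libraries are of cells of the line OG2. The cell-state table holds 3 kinds of pluripotent cell and 1 somatic cell, all given as WT, with 3 libraries per group: ESCs (embryonic stem cells), 2CLCs (2-cell-like cells, named for RNAs they share with the early embryo), EpiSCs (stem cells of the later, primed epiblast) and MEFs (embryonic fibroblasts). The lactate table holds ESCs given as WT at 0 mM and ESCs with 60 or 80 mM sodium lactate, again with 3 libraries per group. OG2 is in general use as the name of mice that carry a GFP transgene under Pou5f1 regulatory sequences, and the labels add nothing to the name. The labels give no culture time, no way in which the 2CLCs were obtained, and no origin of the replicates, which may be technical, so each p-value is relative to the spread among the libraries at hand. The comparisons ask how the core factors differ between states of potency and, in ESCs, between doses of sodium lactate.

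As background, OCT4 is a POU-domain protein that binds an octamer motif, most often side by side with the HMG-box protein SOX2 on a joined SOX and octamer element. NANOG is a homeodomain protein that shares many of their target enhancers, and SALL4 is a zinc finger protein that binds with OCT4 and NANOG and recruits the NuRD corepressor. The 4 genes activate each other in ESCs, OCT4 and SOX2 are kept in the primed epiblast, and fibroblasts silence all of them.

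Values are FPKM, fragments normalised to transcript length and library size, as the authors deposited them, so levels of different genes can be set side by side. Log2 fold changes are differences of log2(FPKM + 1) and come with limma and Benjamini-Hochberg adjustment over all genes tested in a comparison, with a threshold of 0.05. In bulk RNA, fewer cells that express a gene and less of its RNA per cell cannot be told apart. Library sums ranged from 375926 to 519915 FPKM for the cell states and from 396792 to 409131 for lactate, and sequencing depth is not known from these files. EpiSC replicate 1 stood apart from replicates 2 and 3 (Pearson r over tested genes 0.973 and 0.973, against 0.995 between the other two), and the EpiSC fold changes, shares and list counts below are given with it and, beside them, without it or by library. The labelled states were met by their markers: the summed level of 8 markers of 2CLCs was 21807 to 24898 FPKM in 2CLCs and 8.14 to 8.62 in ESCs, 5 primed markers summed to 522 to 640 in EpiSCs and 36.7 to 37.7 in ESCs, and 10 fibroblast markers summed to 2649 to 2718 in MEFs and at most 109 in the other 3 states.

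On GRCm38 (GENCODE M21), Pou5f1 (ENSMUSG00000024406) lies on chromosome 17 at 35506018 to 35510772 on the plus strand, with 5 exons and 352 encoded residues. Sox2 (ENSMUSG00000074637) lies on chromosome 3 at 34650405 to 34652461 on the plus strand, with 1 exon and 319 residues, inside the long noncoding gene Sox2ot on the same strand. Nanog (ENSMUSG00000012396) lies on chromosome 6 at 122707489 to 122714633 on the plus strand, with 4 exons and 305 residues. Sall4 (ENSMUSG00000027547) lies on chromosome 2 at 168748332 to 168767943 on the minus strand, with 4 exons and 1067 residues. Pou5f1 overlaps the antisense gene Gm19553 and Sall4 the opposite-strand gene Gm14261. The highest level of these neighbours in any library was 4.27 FPKM for Gm19553, 0.537 for Gm14261 and 1.01 for Sox2ot, and that of the processed copy Nanog-ps1 was 0.644. The labels do not say whether counting used strand, so reads of overlapping genes on opposite strands cannot be told apart.

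The stretches just upstream of the RefSeq start sites of Nanog, Sox2 and Pou5f1 are shown because they hold, or lack, the letters that the core factors themselves bind (RefSeq, GRCm38.p6, plus strand, matched by symbol for 3 of 4 genes). Capitals mark matches, on either strand, to the SOX motif CATTGT, the octamer motif ATGCAAA, the nuclear receptor motif AGGTCA, the GC box GGGCGG and the CCAAT box. Among the printed stretches only that of Sox2 holds a CCAAT box.
Nanog, chr6:122707339-122707488: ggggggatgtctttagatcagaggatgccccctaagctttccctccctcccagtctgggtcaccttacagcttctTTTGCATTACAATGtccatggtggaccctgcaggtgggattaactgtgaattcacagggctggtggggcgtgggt
Sox2, chr3:34649845-34649994: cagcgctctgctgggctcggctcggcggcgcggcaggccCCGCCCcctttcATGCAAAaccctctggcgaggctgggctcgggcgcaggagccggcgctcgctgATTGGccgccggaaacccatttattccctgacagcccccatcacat
Pou5f1, chr17:35505882-35506017: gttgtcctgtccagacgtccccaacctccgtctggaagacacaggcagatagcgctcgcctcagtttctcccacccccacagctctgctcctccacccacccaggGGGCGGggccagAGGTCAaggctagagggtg
In Nanog the octamer and SOX motifs stand 1 base apart on the minus strand, 75 to 62 bases before the start site. In Sox2 the octamer motif stands 99 to 93 bases before the start site, with a GC box upstream and a CCAAT box on the minus strand 46 to 42 bases before it. In Pou5f1 a GC box 45 to 40 bases and a nuclear receptor motif 33 to 28 bases before the start site are marked, and neither a SOX nor an octamer motif stands in the 250 bases before that site. The printed stretch of Pou5f1 ends at 35506017, short of that start site at 35506032. A CCAAT box on the minus strand, 12 to 8 bases before the site, lies past the printed end. Another RefSeq start site of Pou5f1, at 35508807, has a SOX motif 158 to 153 bases and a CCAAT box 168 to 164 bases before it. Upstream of the printed stretches, the nuclear receptor motif also stands on the minus strand 244 to 239 bases before the Sox2 start site. It stands on the minus strand 248 to 243 bases before the Nanog start site at 122707489 as well. Sox2 has a further GC box 223 to 218 bases before its start site. Of 32851 windows of 250 bases before RefSeq start sites (27025 genes), 10.7% held the SOX motif, 4.12% the octamer motif, 14.0% the nuclear receptor motif, 32.7% the GC box and 33.8% the CCAAT box on either strand. The joined element, whose hits are also hits of its parts, was in 2 windows, both of Nanog. A match describes letters only.

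Across the cell states, the 4 genes had different orders (the plot of levels by library shows them). Pou5f1, the most abundant of the 4 in each pluripotent group, stood at 778, 776 and 782 FPKM in the ESC libraries, at 576, 720 and 736 in EpiSCs, at 533, 553 and 571 in 2CLCs, and was listed at 0 in all 3 MEF libraries. The ESC libraries were above every EpiSC and 2CLC library, and EpiSC replicate 1 lay just above the highest 2CLC library. Sox2 stood at 131.5, 131.0 and 129 FPKM in ESCs, at 49.7, 29.2 and 31.1 in EpiSCs, at 16.3, 18.7 and 24.8 in 2CLCs and at 0.671, 0.951 and 0.602 in MEFs. No 2 states overlapped in Sox2. Nanog stood at 276, 276 and 279 FPKM in ESCs, at 116, 113 and 114 in 2CLCs, at 36.0, 25.2 and 26.6 in EpiSCs, and at 0.0604, 0 and 0.0612 in MEFs. Its states did not overlap either, and 2CLCs took the place between ESCs and EpiSCs that EpiSCs took for Sox2. Sall4 stood at 91.8, 95.9 and 77.9 FPKM in 2CLCs, at 65.2, 62.9 and 68.4 in ESCs, at 45.2, 21.3 and 22.2 in EpiSCs and at 0.0105, 0.0175 and 0 in MEFs. Sall4 was the only one of the 4 with its highest mean in 2CLCs, where all 3 libraries lay above all ESC libraries.

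**Figure D1:**
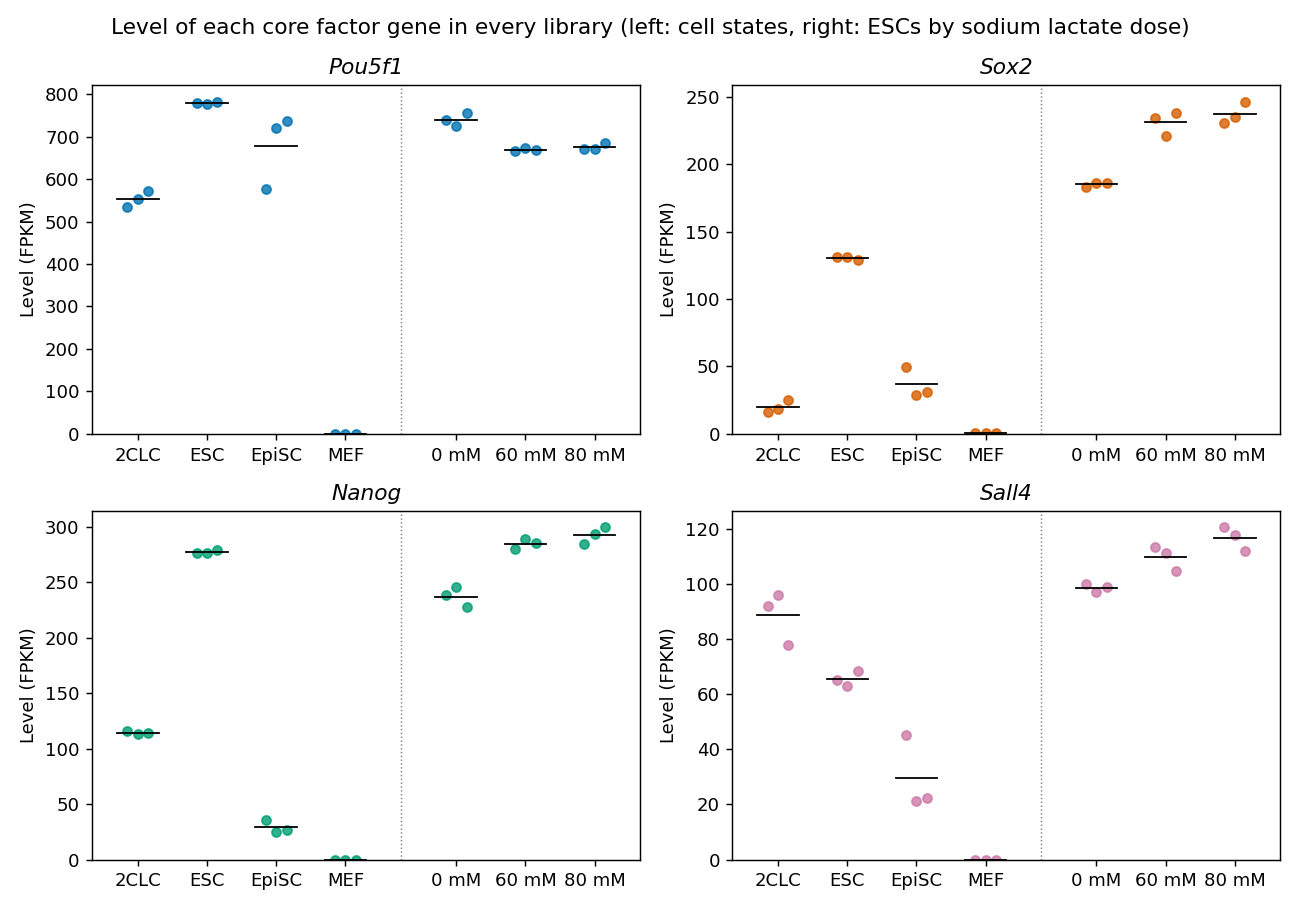
Level in FPKM (vertical axis, from 0) of Pou5f1, Sox2, Nanog and Sall4 in each of 21 libraries (points, replicates 1 to 3 from left to right) with the group mean (bar), for 4 cell states left of the dotted line and 3 sodium lactate doses right of it. In 2CLCs Sox2 (mean 19.9) and Nanog (114) lie below ESCs (131 and 277) while Sall4 (88.5) lies above ESCs (65.5), and with lactate Pou5f1 is lower and the other 3 genes are higher than at 0 mM.

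The place of each gene among all names of a group shows how uneven these levels are. By mean FPKM, Pou5f1 ranked 43 of all names in ESCs, 70 in EpiSCs and 153 in 2CLCs. Nanog ranked 213 in ESCs, 661 in 2CLCs and 2837 in EpiSCs, and Sox2 ranked 558, 3154 and 2261. Sall4 ranked 830 in 2CLCs, 1210 in ESCs and 2802 in EpiSCs, so in 2CLCs it stood ahead of Sox2, which it followed in ESCs.

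2CLCs and ESCs were compared to ask which core factors are kept in the 2-cell-like state. With limma, Sox2 fell most, to 0.153 times its ESC level (19.9 ± 4.41 against 131 ± 1.22 FPKM, SD, n = 3, log2 fold change -2.67, SE 0.191, adjusted p = 1.58e-07). Nanog fell to 0.412 times (114 ± 1.29 against 277 ± 1.85 FPKM, log2 fold change -1.27, SE 0.105, adjusted p = 5.28e-07). Pou5f1 fell to 0.709 times (552 ± 19.1 against 779 ± 3.40 FPKM, log2 fold change -0.50, SE 0.0800, adjusted p = 0.000151). Sall4 stood at 88.5 ± 9.41 against 65.5 ± 2.77 FPKM, a log2 fold change of 0.42 with a 95% interval from -0.07 to 0.91 that did not pass the test (adjusted p = 0.103), although the groups did not overlap. Of the 8 markers of 2CLCs 8 rose, and of the 6 naive markers 1 rose and 5 fell, with sums of 792 to 893 FPKM in 2CLCs and 1288 to 1297 in ESCs and none listed at 0; their part in the values of the 4 genes was not tested.

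Called genes made up 76.5% of the 16358 tested in this comparison, with 20.1% higher and 56.4% lower, so 3 of 4 members called lower is near the background and is no result about the 4 genes as a group. The median of all genes was -0.46 on the log2 scale. Relative to it the changes were -2.21 for Sox2, -0.81 for Nanog, -0.04 for Pou5f1 and 0.88 for Sall4. A larger fall than that of Sox2 was seen in 0.911% of tested genes, and than that of Nanog in 16.8%, while 48.5% lay below Pou5f1 and 81.9% below Sall4. With median-of-ratios scaling, which brings the all-gene median to 0.02, Sox2 (-1.93) and Nanog (-0.51) were still called lower, Pou5f1 was called higher (0.27, adjusted p = 0.0109) and Sall4 was called higher (1.18, adjusted p = 0.000527). The direction of Pou5f1 in 2CLCs therefore depends on the scaling, and with quantile normalization it was lower (-1.17). Sall4 was also called higher, with the same log2 fold change, in a fit of only 2CLCs and ESCs (adjusted p = 0.00142) and with EpiSC replicate 1 left out of the shared spread (0.000191, chosen after seeing the data). Over all alternatives its adjusted p ran from 0.000191 to 0.232.

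**Figure D2:**
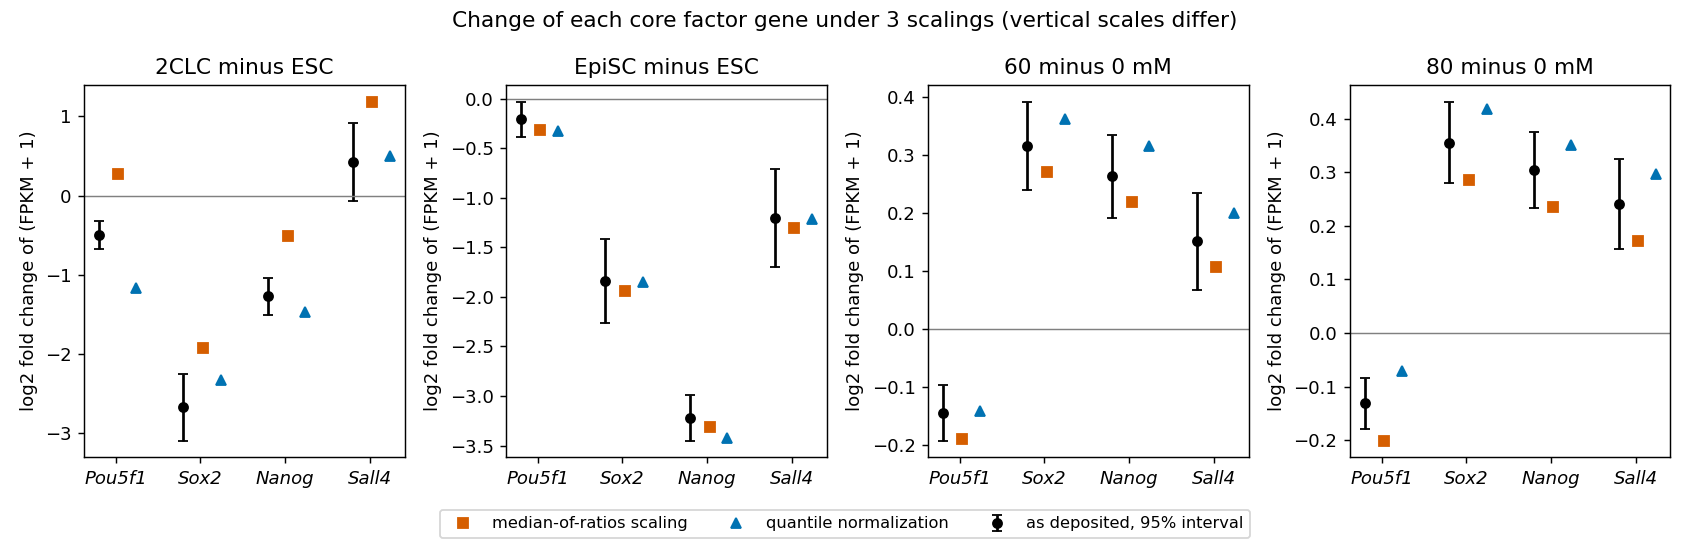
Log2 fold change of (FPKM + 1) of each gene in 4 comparisons, with FPKM as deposited (circle, bar for the 95% interval), median-of-ratios scaling (square) and quantile normalization (triangle). Pou5f1 changes sign in 2CLCs with median-of-ratios scaling (-0.50 as deposited, 0.27 rescaled), and in the other 3 comparisons each gene keeps its direction under all 3 scalings.

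EpiSCs and ESCs were compared to ask which core factors remain in primed cells. Pou5f1 stayed close to its ESC level (677 ± 88.2 against 779 ± 3.40 FPKM, 0.869 times, log2 fold change -0.21, adjusted p = 0.0412). Nanog fell most, to 0.106 times (29.3 ± 5.90 against 277 ± 1.85 FPKM, log2 fold change -3.22, adjusted p = 6.54e-10). Sox2 fell to 0.281 times (36.7 ± 11.4 against 131 ± 1.22 FPKM, log2 fold change -1.84, adjusted p = 7.98e-06) and Sall4 to 0.452 times (29.6 ± 13.6 against 65.5 ± 2.77 FPKM, log2 fold change -1.21, adjusted p = 0.000655). Called genes were 59.7% of those tested, 33.2% higher and 26.5% lower, against 4 of 4 members lower. Falls larger than those of Nanog, Sox2, Sall4 and Pou5f1 were seen in 0.899%, 2.96%, 5.97% and 30.4% of tested genes.

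EpiSC replicate 1 held more Sox2, Nanog and Sall4 and less Pou5f1 than replicates 2 and 3. Without it the log2 fold changes were -0.10 for Pou5f1, -2.08 for Sox2, -3.37 for Nanog and -1.55 for Sall4, all still called. The 10 markers of differentiating cells summed to 12.6 to 13.4 FPKM in ESCs and 362 to 426 in EpiSCs, with 3 of 5 tested called higher (4 of 5 without that library). Of 10 fibroblast markers 7 were called higher in EpiSCs, or 7 higher and 1 lower without that library. In EpiSC replicate 1 the fibroblast markers summed to 54.4 FPKM against 108 and 109 in replicates 2 and 3 (none listed at 0 in all 3 EpiSC libraries), and the markers of differentiating cells summed to 362 against 426 and 426, with Cdx2 listed at 0 in every EpiSC library. The part of these differences in the values of the 4 genes was not tested. The call of Pou5f1 was lost in a fit of only these 2 groups (adjusted p = 0.128), with no mean trend (0.0538) and without any of ESC replicates 1 to 3 (0.0886, 0.0852 and 0.0937).

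Set directly against each other, 2CLCs held more Nanog and Sall4 than EpiSCs and less Pou5f1 and Sox2. Nanog was 3.90 times higher in 2CLCs (log2 fold change 1.95, adjusted p = 1.02e-08) and Sall4 2.99 times higher (1.63, adjusted p = 3.20e-05). Pou5f1 was 0.816 times its EpiSC level (-0.29, adjusted p = 0.00631) and Sox2 0.544 times (-0.83, adjusted p = 0.00187). Called genes were 82.1% here. Without EpiSC replicate 1 the log2 fold changes were 2.0995 for Nanog, 1.97 for Sall4, -0.40 for Pou5f1 and -0.59 for Sox2, all still called. With median-of-ratios scaling Pou5f1 was called higher in 2CLCs (0.59, adjusted p = 4.10e-05) and Sox2 did not differ beyond the spread (0.02, adjusted p = 0.945), and Pou5f1 was not called in a fit of only these groups (adjusted p = 0.0535).

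MEFs were near or at 0 for all 4 genes, so no fold is given against them. Each gene was called lower in MEFs than in ESCs (75.3% of genes called), than in 2CLCs (84.4%) and than in EpiSCs (72.4%), and the highest of these 12 adjusted p-values was 6.85e-09. Sox2 was the only member above 0.1 FPKM in MEFs, at 0.741 ± 0.185 FPKM.

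With sodium lactate, Pou5f1 went one way and the other 3 genes the other way. No group received another sodium salt, so lactate, its sodium and the added solute cannot be told apart. Pou5f1 stood at 740, 724 and 755 FPKM at 0 mM, at 667, 673 and 668 at 60 mM, and at 671, 670 and 684 at 80 mM. Every library with lactate was below every library without it. Sox2 stood at 183, 186 and 186 FPKM at 0 mM, at 234, 221 and 238 at 60 mM, and at 231, 235 and 246 at 80 mM. Nanog stood at 238, 245 and 227 FPKM at 0 mM, at 280, 289 and 285 at 60 mM, and at 285, 294 and 299 at 80 mM. For Sox2 and Nanog every library with lactate was above every library without it, and the 2 doses overlapped. Sall4 stood at 99.98, 97.0 and 98.9 FPKM at 0 mM, at 113, 111 and 105 at 60 mM, and at 120.5, 118 and 112 at 80 mM, again with no overlap between 0 mM and either dose.

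At 60 mM against 0 mM, Pou5f1 fell to 0.905 times (log2 fold change -0.14, SE 0.0214, adjusted p = 0.000497), and Sox2 rose 1.25-fold (0.32, SE 0.0340, adjusted p = 6.81e-05). Nanog rose 1.201-fold (0.26, SE 0.0319, adjusted p = 0.000140) and Sall4 1.11-fold (0.15, SE 0.0377, adjusted p = 0.00923, or 0.0654 with no filter on low genes). Of 13271 genes tested, 42.1% were called, 23.5% higher and 18.6% lower. At 80 mM the values were 0.913 times for Pou5f1 (log2 fold change -0.13, adjusted p = 0.000540), 1.28-fold for Sox2 (0.36, adjusted p = 1.60e-05), 1.24-fold for Nanog (0.30, adjusted p = 2.90e-05) and 1.18-fold for Sall4 (0.24, adjusted p = 0.000421), with 53.1% of genes called, 30.0% higher and 23.1% lower. Since many genes were called, 4 of 4 members called is read only with their sizes, and none of these 8 changes reached 1 on the log2 scale. Both doses share the 0 mM libraries.

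Between 60 and 80 mM no member passed the test, and the groups overlapped for all 4, with 6.17% of genes called. The log2 differences were 0.01 for Pou5f1 (95% interval -0.04 to 0.06), 0.04 for Sox2 (-0.04 to 0.12), 0.04 for Nanog (-0.03 to 0.11) and 0.09 for Sall4 (0.00 to 0.17, adjusted p = 0.200). Sall4 alone had an unadjusted limma p under the threshold (0.0399).

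Marker lists moved with the doses too. The 8 markers of 2CLCs summed to 54.3 to 58.4 FPKM at 0 mM, 117 to 126 at 60 mM and 183 to 200 at 80 mM, with none listed at 0 in every library of a dose, and 7 of the 7 tested were called higher at each dose. The 6 naive markers summed to 1514 to 1573, 1717 to 1778 and 1798 to 1855 FPKM, with 4 called higher and 2 lower at each dose and none listed at 0. The 10 fibroblast markers summed to 163 to 180, 63.1 to 69.9 and 55.1 to 57.4 FPKM, with 2 of 5 tested called higher and 3 lower and with Prrx1 listed at 0 at every dose and Postn at 0 and 80 mM. The 6 primed markers summed to 66.2 to 71.5, 87.6 to 95.8 and 92.8 to 96.7 FPKM, with 2 of 4 tested called higher and 1 lower at each dose, Fgf5 listed at 0 at 60 mM and Foxa2 at 80 mM. The 10 markers of differentiating cells summed to 12.2 to 12.9, 15.4 to 18.1 and 20.5 to 24.4 FPKM, with 2 of 3 tested called higher at each dose and none listed at 0 in every library of a dose. The part of these lists in the changes of the 4 genes was not tested.

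Ratios within a library do not change when the whole library is multiplied by a scaling factor. Each of the 6 ratios between members was compared over the 3 pluripotent states and over the 3 doses with an exact permutation test over 9 libraries, whose smallest possible p is 0.00357, and p-values were adjusted over these 12 tests. MEFs were left out because their levels are at or near 0. Each p is for a difference anywhere among the 3 states or among the 3 doses. The fold printed beside it is the largest gap between group means, picked from the data, and the p is not a test of that pair. The 6 ratios share genes, so their tests are not independent.

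The ratio of Pou5f1 to Sox2 was 32.8, 29.5 and 23.0 in the 2CLC libraries, 5.92, 5.92 and 6.06 in ESCs and 11.6, 24.7 and 23.6 in EpiSCs. ESCs had the lowest ratio, and 2CLCs and EpiSCs overlapped. The largest difference between groups, 2CLCs over ESCs, was 4.71-fold (exact permutation p = 0.0107, adjusted 0.0161). The adjusted p was 0.0619 without any of ESC replicates 1 to 3.

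Pou5f1 over Nanog was 4.61, 4.89 and 5.02 in 2CLCs, 2.82, 2.81 and 2.80 in ESCs and 16.0, 28.6 and 27.6 in EpiSCs. No 2 states overlapped, and EpiSCs were 8.29-fold above ESCs (exact permutation p = 0.00357, adjusted 0.0107). Pou5f1 over Sall4 was 5.81, 5.77 and 7.33 in 2CLCs, 11.9, 12.3 and 11.4 in ESCs and 12.7, 33.8 and 33.1 in EpiSCs. This ratio was lowest in 2CLCs, and EpiSCs were 3.87-fold above them (exact permutation p = 0.00357, adjusted 0.0107, or 0.0524 to 0.0589 without 2CLC replicate 1 or 2 or ESC replicate 2). EpiSC replicate 1 lay close to the ESC libraries in it.

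The ratios among Sox2, Nanog and Sall4 separated the states as well. Sox2 over Nanog was 0.141, 0.166 and 0.218 in 2CLCs, 0.476, 0.475 and 0.462 in ESCs and 1.38, 1.16 and 1.17 in EpiSCs, where alone Sox2 stood above Nanog (7.17-fold between EpiSCs and 2CLCs, exact permutation p = 0.00357, adjusted 0.0107). Sox2 over Sall4 was 0.177, 0.195 and 0.319 in 2CLCs, 2.02, 2.08 and 1.89 in ESCs and 1.10, 1.37 and 1.40 in EpiSCs, with an 8.96-fold difference between ESCs and 2CLCs (exact permutation p = 0.00357, adjusted 0.0107). Sox2 stood below Sall4 in each 2CLC library and above it in each ESC and EpiSC library. Nanog over Sall4 was 1.26, 1.18 and 1.46 in 2CLCs, 4.24, 4.39 and 4.08 in ESCs and 0.797, 1.18 and 1.20 in EpiSCs, with 2CLCs and EpiSCs overlapping and ESCs 4.07-fold above EpiSCs (exact permutation p = 0.0107, adjusted 0.0161).

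With lactate, the 3 ratios that hold Pou5f1 fell and the other 3 did not pass the test. The 3 ratios with Pou5f1 share its values and are not independent results. Pou5f1 over Sox2 was 4.04, 3.89 and 4.05 at 0 mM, 2.85, 3.05 and 2.81 at 60 mM and 2.91, 2.85 and 2.78 at 80 mM (1.40-fold between 0 and 80 mM, exact permutation p = 0.0250, adjusted 0.0333). Pou5f1 over Nanog was 3.11, 2.95 and 3.32 at 0 mM, 2.38, 2.33 and 2.34 at 60 mM and 2.36, 2.28 and 2.29 at 80 mM (1.35-fold, exact permutation p = 0.0107, adjusted 0.0161). Pou5f1 over Sall4 was 7.40, 7.47 and 7.63 at 0 mM, 5.89, 6.05 and 6.39 at 60 mM and 5.57, 5.69 and 6.11 at 80 mM (1.30-fold, exact permutation p = 0.0107, adjusted 0.0161). In all 3 the 0 mM libraries lay above every library with lactate, and the 2 doses overlapped. Sox2 over Nanog ranged from 0.760 to 0.836, Sox2 over Sall4 from 1.83 to 2.27 and Nanog over Sall4 from 2.30 to 2.72 over the 9 libraries, and the exact permutation p-values were 0.489, 0.129 and 0.307 (adjusted 0.489, 0.154 and 0.335). Single pairs of groups with 3 libraries each cannot go below an exact p of 0.1.

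**Figure D3:**
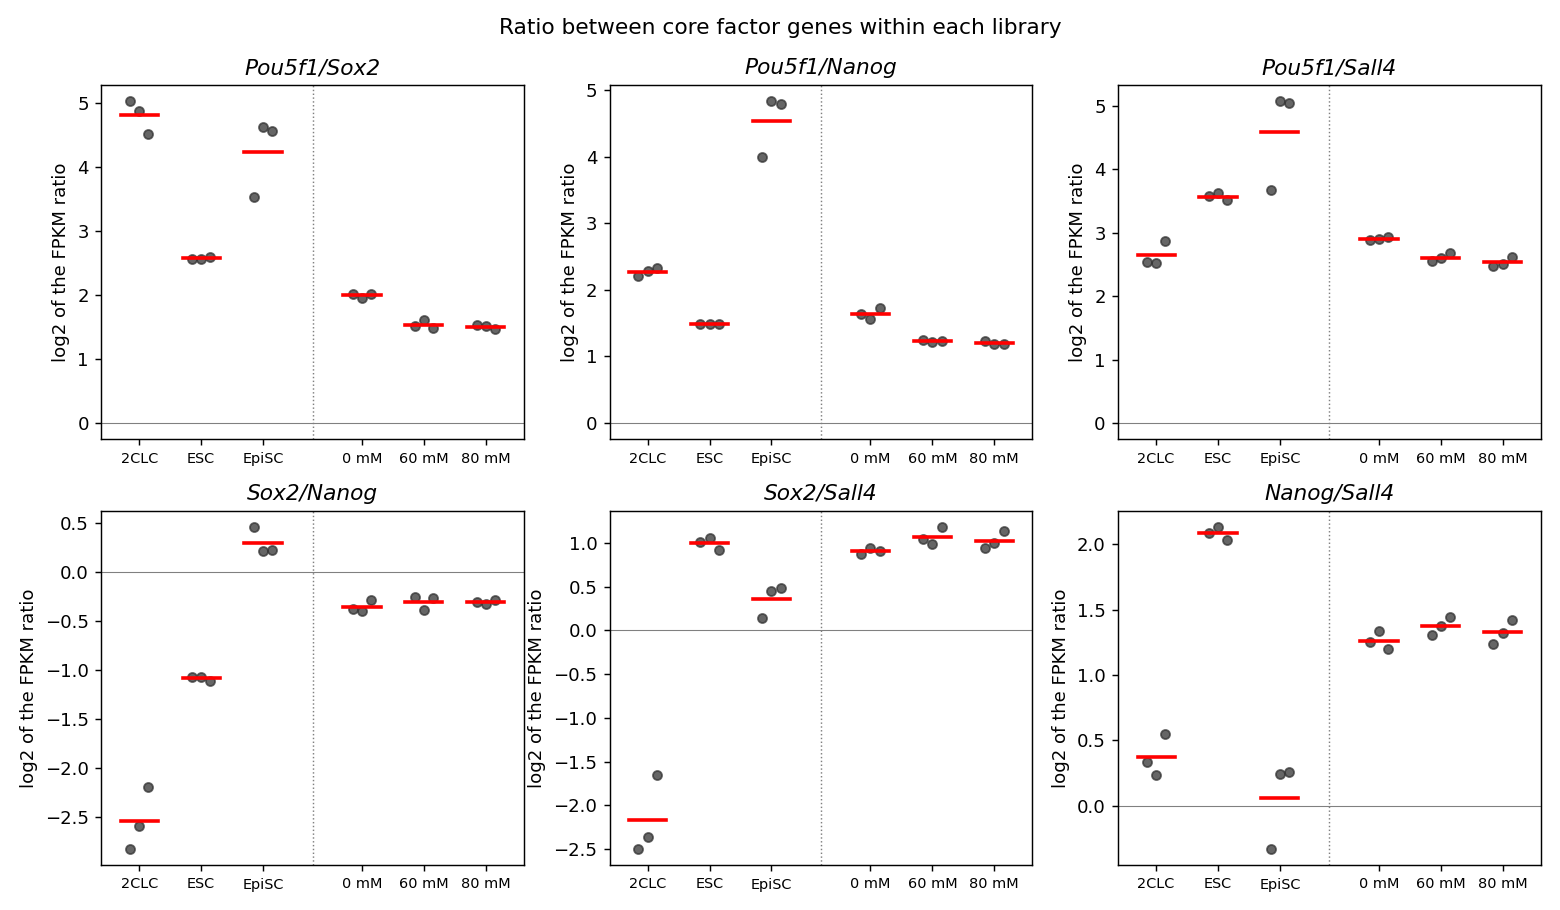
Log2 of the FPKM ratio between 2 genes within each library (points, replicates 1 to 3 from left to right) with the group mean (red bar), for 3 cell states left of the dotted line and 3 sodium lactate doses right of it. Sox2 over Sall4 lies below 0 only in 2CLCs, Sox2 over Nanog lies above 0 only in EpiSCs, and the 3 ratios with Pou5f1 are lower at 60 and 80 mM than at 0 mM.

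As shares of the summed level of the 4 genes, Pou5f1 took 71.3% ± 1.10 in 2CLCs, 62.2% ± 0.0718 in ESCs and 87.4% ± 5.13 in EpiSCs (SD, n = 3). Sall4 took 11.4% ± 1.34 in 2CLCs, 5.23% ± 0.192 in ESCs and 3.93% ± 2.14 in EpiSCs, and Sox2 took 2.57% ± 0.522, 10.4% ± 0.147 and 4.84% ± 1.91. Nanog took 14.7% ± 0.467, 22.1% ± 0.0570 and 3.84% ± 1.09. The sum itself was 775 ± 16.2 FPKM in 2CLCs, 1252 ± 6.91 in ESCs and 773 ± 58.1 in EpiSCs, by library 757, 780 and 788 FPKM in 2CLCs and 707, 796 and 816 in EpiSCs, so EpiSC replicate 1 lay below and the other EpiSC libraries above all 2CLC libraries. In EpiSC replicates 1 to 3 the shares were 81.5%, 90.5% and 90.2% for Pou5f1, 7.04%, 3.67% and 3.82% for Sox2, 5.10%, 3.16% and 3.26% for Nanog and 6.40%, 2.68% and 2.73% for Sall4. Unlike the shares, the sums depend on how libraries are scaled. With lactate the share of Pou5f1 was 58.7% ± 0.868 at 0 mM, 51.7% ± 0.274 at 60 mM and 51.1% ± 0.226 at 80 mM, while the sum was 1260.4 ± 7.38, 1294 ± 1.46 and 1322 ± 18.3 FPKM.

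Paralogues show whether a related gene stands where a core factor is low. Of the SALL paralogues, Sall1 fell from 43.5 ± 1.49 FPKM in ESCs to 1.87 ± 0.706 in 2CLCs (log2 fold change -3.98, adjusted p = 2.66e-07) and Sall3 from 9.29 ± 0.108 to 1.06 ± 0.183 (-2.32, adjusted p = 6.47e-10), in the cells where Sall4 was at its highest. In EpiSCs, Sall2 stood at 20.1 ± 7.02 FPKM against 2.66 ± 0.159 in ESCs (2.48, adjusted p = 3.35e-07). Sall1 and Sall3 were called lower than in ESCs there too, with or without EpiSC replicate 1 (26.5% of all genes fell with it). With lactate Sall1 fell at both doses (22.5 ± 0.642, 19.1 ± 0.652 and 16.3 ± 0.249 FPKM at 0, 60 and 80 mM) and so did Sall3 (5.49 ± 0.236, 2.42 ± 0.312 and 1.70 ± 0.0493), while Sall2 rose (2.39 ± 0.0885, 3.75 ± 0.145 and 3.36 ± 0.301).

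Of 18 SOX paralogues listed, 11 were tested in the cell states, and 3 rose and 6 fell in 2CLCs, where 20.1% of all genes rose and 56.4% fell. Sox3, of the same subgroup as Sox2, rose from 2.75 ± 0.164 FPKM in ESCs to 7.42 ± 0.746 in 2CLCs (log2 fold change 1.16, adjusted p = 0.000262). In EpiSCs 6 rose and 3 fell, with or without EpiSC replicate 1 (33.2% and 26.5% of all genes with it), among them Sox4 (31.4 ± 5.01 against 11.3 ± 0.598 FPKM), Sox11 (19.8 ± 1.003 against 4.65 ± 0.0852), Sox12 (18.9 ± 6.10 against 7.48 ± 0.156), Sox13 (13.8 ± 0.395 against 5.29 ± 0.513) and Sox3 (12.5 ± 5.26) as rises. Sox4 and Sox9 were the paralogues above 8 FPKM in MEFs, at 57.2 ± 2.00 and 8.22 ± 0.0930 FPKM. With lactate 2 of 7 tested rose at each dose (23.5% and 30.0% of all genes at 60 and 80 mM), Sox13 (11.4 ± 0.648 to 18.9 ± 0.429 FPKM at 80 mM) and Sox21 (3.53 ± 0.292 to 6.13 ± 0.173), and 4 fell (18.6% and 23.1% of all genes), among them Sox12 (9.19 ± 0.299 to 4.18 ± 0.209).

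Of 14 POU paralogues, 7 were tested in each table. Pou2f1, the widely expressed OCT1, fell from 15.8 ± 0.140 FPKM in ESCs to 6.36 ± 0.747 in 2CLCs (log2 fold change -1.19, adjusted p = 3.61e-05) and from 14.2 ± 0.420 at 0 mM to 9.48 ± 0.321 at 80 mM (-0.54, adjusted p = 6.01e-05). In EpiSCs 2 of the 7 rose and 4 fell, or 3 and 4 without EpiSC replicate 1 (33.2% and 26.5% of all genes with it). Pou3f1, which is also a listed primed marker, and Pou6f1 rose in EpiSCs, to 37.6 ± 8.22 and 7.02 ± 0.454 FPKM from 2.13 ± 0.0335 and 0.591 ± 0.0971 in ESCs. In 2CLCs 2 rose and 4 fell (20.1% and 56.4% of all genes), and with lactate 1 rose and 2 fell at each dose.

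**Figure D4:**
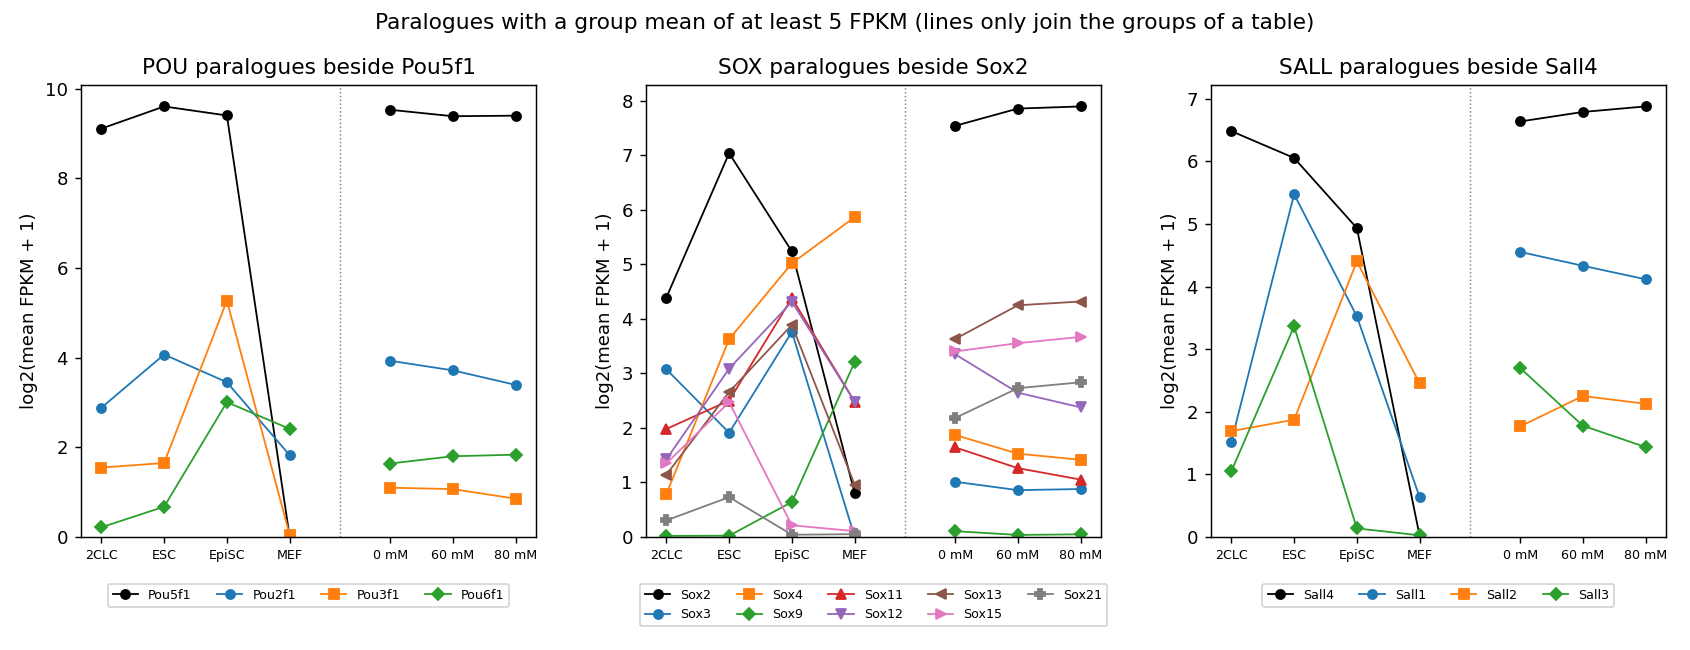
Log2 of (mean FPKM + 1) of POU, SOX and SALL paralogues with a group mean of at least 5 FPKM in some group, beside Pou5f1, Sox2 and Sall4 (black circles), for 4 cell states left of the dotted line and 3 sodium lactate doses right of it. Sall1 and Sall3 are below their ESC level in 2CLCs and in EpiSCs, while Sall4 is below its ESC level in EpiSCs and not in 2CLCs. Sox3 is above its ESC level in 2CLCs and EpiSCs.

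Genes around the core factors were counted from lists written from general knowledge. Counts with median-of-ratios scaling are to be read beside the all-gene calls of that scaling. Of 16358 genes, 6018 then rose and 5301 fell in 2CLCs, and 4705 rose and 4942 fell in EpiSCs. Of 13271 genes, 2571 rose and 3026 fell at 60 mM, and 3269 rose and 3913 fell at 80 mM. Of 23 transcription factors that bind chromatin together with them in ESCs, 21 fell in 2CLCs and 2 did not pass (median log2 fold change -1.42, against -0.46 for all genes, and 15 fell and 1 rose with median-of-ratios scaling), where 56.4% of all genes fell as deposited. The largest falls were those of Myc (1.61 ± 0.335 against 42.0 ± 1.77 FPKM) and Mycn (5.64 ± 1.05 against 54.1 ± 0.576), which drive growth genes. In EpiSCs 18 of 23 fell and 2 rose (median -1.10, all genes 0.01), or 19 and 3 without EpiSC replicate 1, against 26.5% and 33.2% of all genes. The falls were led by the nuclear receptors Esrrb (0.699 ± 0.279 against 285 ± 5.79 FPKM) and Nr0b1 (listed at 0 in EpiSCs, 73.6 ± 1.22 in ESCs). Esrrb, Klf4 and Tbx3 of this list are also naive markers, so its EpiSC count partly repeats the marker list. All 6 naive markers fell in EpiSCs, with or without EpiSC replicate 1. With lactate 7 rose and 12 fell at each dose (medians -0.13 at 60 mM and -0.12 at 80 mM), while after rescaling by median of ratios 4 rose at 60 mM, 6 rose at 80 mM and 12 fell at each. Of all genes 23.5% rose and 18.6% fell at 60 mM, and 30.0% and 23.1% at 80 mM, as deposited, and these shares stand beside the other lactate counts as well. At 80 mM Nr0b1 fell from 53.8 ± 0.162 to 19.0 ± 1.14 FPKM and Myc from 29.9 ± 1.87 to 14.5 ± 0.667, while the naive factors Klf4 (63.2 ± 1.62 to 94.9 ± 2.01) and Tbx3 (82.4 ± 3.43 to 115.7 ± 2.03) rose.

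Of 17 genes listed as direct targets of OCT4 and SOX2, 14 fell and 2 rose in 2CLCs (median -2.02, and 11 fell and 2 rose with median-of-ratios scaling), against 56.4% and 20.1% of all genes as deposited. Lin28a, an RNA-binding protein that blocks let-7, stood at 6.95 ± 1.02 FPKM in 2CLCs against 117 ± 3.04 in ESCs, and Fgf4, whose enhancer holds a SOX and octamer element, at 6.72 ± 1.59 against 64.0 ± 1.71. Fbxo15 rose from 51.7 ± 0.682 to 908 ± 68.9 FPKM and Dppa5a from 513 ± 1.76 to 703 ± 66.6. In EpiSCs 11 fell and 2 rose (median -1.38), or 13 and 2 without EpiSC replicate 1, against 26.5% and 33.2% of all genes. There Utf1 rose from 210.4 ± 3.76 to 314 ± 1.86 FPKM while Zfp42 went from 318 ± 1.37 to 0.0307 ± 0.0532. Zfp42 and Dppa5a of this list are also naive markers, so its EpiSC count partly repeats the marker list. With lactate 7 rose and 7 fell at 60 mM, and 7 rose and 8 fell at 80 mM, with medians of 0.01 and 0.00. After rescaling by median of ratios, 5 rose and 8 fell at 60 mM, and 4 rose and 8 fell at 80 mM. Lefty1, a Nodal antagonist, fell from 8.77 ± 0.558 to 2.46 ± 0.342 FPKM at 80 mM and Lin28a from 47.1 ± 1.36 to 19.7 ± 0.463, while Jarid2, a PRC2 partner, rose from 74.5 ± 2.83 to 116 ± 2.51.

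Among 16 genes of NuRD and other corepressors, 11 fell and 0 rose in 2CLCs, and with median-of-ratios scaling 6 fell and 6 rose. As deposited, 56.4% of all genes fell, so the count is near the background. Zmynd8 (6.06 ± 0.559 against 32.5 ± 2.48 FPKM) and Rcor2 (17.7 ± 0.863 against 67.1 ± 0.575) fell most as deposited. In EpiSCs 8 fell and 3 rose, or 9 and 4 without EpiSC replicate 1, and 12 and 2 with median-of-ratios scaling (26.5% and 33.2% of all genes as deposited), with Trim28 at 290.2 ± 16.0 against 627 ± 9.56 FPKM. With lactate 8 rose at each dose and 3 and 2 fell at 60 and 80 mM (5 rose at each dose and 4 and 5 fell with median-of-ratios scaling), and Hdac1, the NuRD deacetylase, rose from 205 ± 4.17 to 259.6 ± 3.87 FPKM at 80 mM. Of 18 coactivator genes (Mediator, cohesin, acetyltransferases, the XPC complex and others), 15 fell and 0 rose in 2CLCs, and 7 fell and 7 rose with median-of-ratios scaling, beside 56.4% and 20.1% of all genes as deposited. In EpiSCs 5 fell and 6 rose, or 9 and 6 without EpiSC replicate 1, and 7 and 5 with median-of-ratios scaling, beside 26.5% and 33.2% of all genes. With lactate 4 fell and 3 rose at 60 mM, and 7 fell and 5 rose at 80 mM. With median-of-ratios scaling 5 fell and 1 rose at 60 mM, and 8 fell and 3 rose at 80 mM.

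Of 16 lineage genes listed as opposed by the core factors, 8 were tested in the cell states and 6 with lactate. Whether the core factors hold them down in these cells was not tested. Eomes, a trophoblast and mesendoderm factor, fell from 11.2 ± 0.460 FPKM in ESCs to 0.702 ± 0.246 in 2CLCs, where 2 of the 8 rose and 3 fell (20.1% and 56.4% of all genes), and 4 rose and 3 fell with median-of-ratios scaling. Eomes was also called lower in EpiSCs and in MEFs than in ESCs. Nes (43.3 ± 9.43 against 1.60 ± 0.0449 FPKM) and T (7.31 ± 0.652 against 0.930 ± 0.156) were the 2 that rose in EpiSCs, where 3 fell (33.2% and 26.5% of all genes), and 4 rose and 3 fell without EpiSC replicate 1. At each dose of lactate 4 of 6 rose and 1 fell, with Gata2 at 9.61 ± 1.35 against 2.69 ± 0.188 FPKM and Gata3 at 7.56 ± 0.766 against 2.61 ± 0.368 at 80 mM. T, Gata6 and Cdx2 of this list are also markers of differentiating cells, so its counts partly repeat that marker list.

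**Figure D5:**
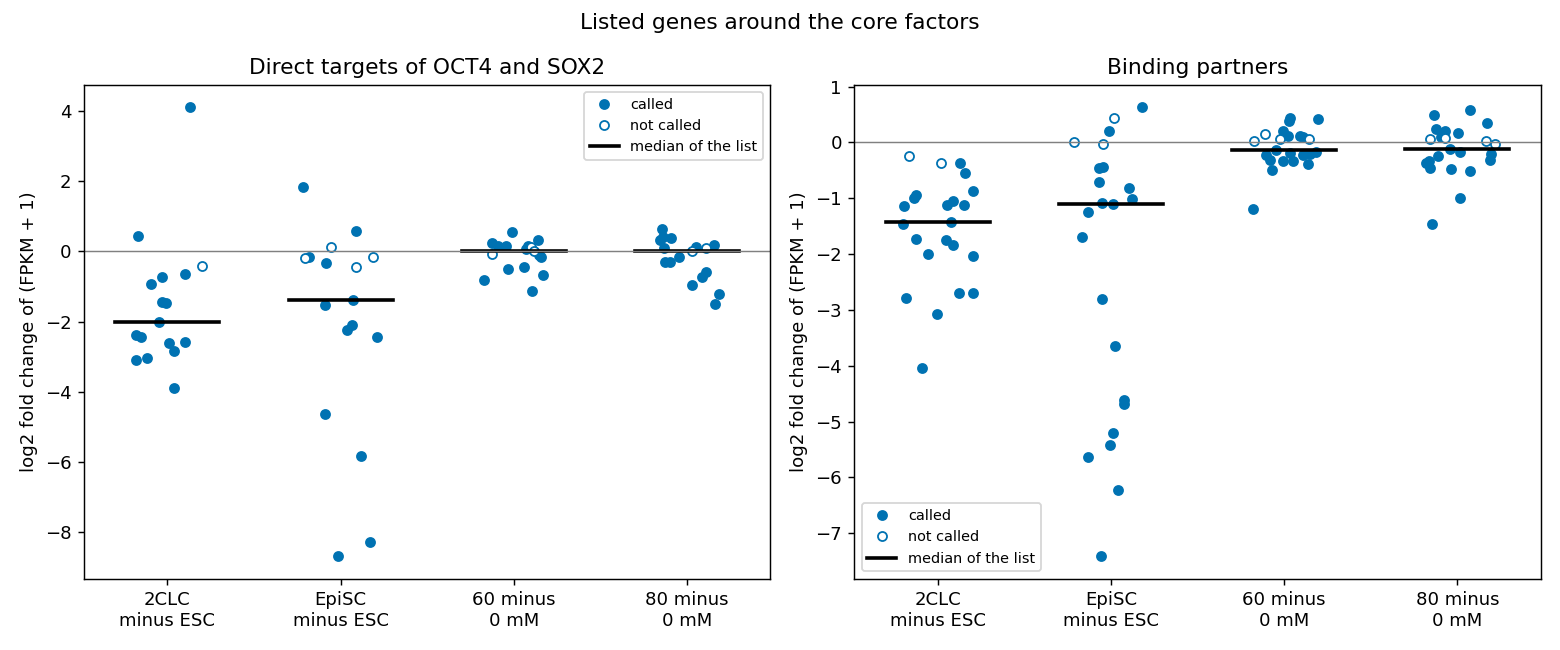
Log2 fold change of (FPKM + 1) of the tested genes of 2 lists in 4 comparisons (filled points are called at an adjusted p of 0.05, open points are not, the bar is the median of the list, and the horizontal scatter is only for display). Most points lie below 0 in 2CLCs and EpiSCs, with medians of -2.02 and -1.38 for the direct targets, and around 0 with lactate.

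Finally, genes with the most similar pattern were sought by Pearson r of log2(FPKM + 1) among genes with at least 5 FPKM in a group mean, as a description with no test. The members themselves and names of predicted genes or clones (such as Gm with digits, Rik or LOC) were left out of the search. Over the 12 cell-state libraries (10579 genes searched), where MEFs set much of each r, Pou5f1 was closest to Trim6 (r = 0.999), Sox2 to Srfbp1 (0.996), Nanog to H2az1 (0.998) and Sall4 to Ccna2 (0.999). Ccna2, cyclin A2, stood at 94.998, 89.7, 66.8 and 24.5 FPKM in 2CLCs, ESCs, EpiSCs and MEFs, and Lig1, the replicative DNA ligase and the next closest gene to Sall4 (r = 0.997), at 158, 121, 81.1 and 12.2. Over the 9 lactate libraries (8203 genes), Pou5f1 was closest to Atf4 (0.994), at 127, 102 and 104 FPKM at 0, 60 and 80 mM, then to Gars (0.993), Cnn3 (0.992) and Eif4ebp1 (0.986). Sox2 was closest to Iffo1 (0.993), Nanog to Slc35b1 (0.995) and Sall4 to Sh2b1 (0.989). Between members, r over the 9 lactate libraries was -0.92 for Pou5f1 and Sox2, -0.95 for Pou5f1 and Nanog and -0.82 for Pou5f1 and Sall4, and 0.96, 0.82 and 0.83 among the other 3 pairs. The step from 0 mM to lactate, with no overlap in any member, sets much of each of these r. Over the 12 cell-state libraries, MEFs included, r between members ran from 0.87 to 0.97, also for the pairs with Pou5f1.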

How the data were processed

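RNA was extracted with Trizol and made into TruSeq libraries, per the labels' protocols. The submitters' processing notes name HISAT2 2.0.4, StringTie 2.1.4 and the mouse build mm10, and the authors deposited FPKM values for 12 cell-state libraries and, in a separately normalized table, 9 lactate libraries, so nothing was tested across tables. The annotation and strand setting were not given in the labels. FPKM steps did not give whole reads, so depth is unknown and no count model was used. Genes that reached 1 FPKM in 3 or more of a table's libraries (16358 and 13271) were tested on log2(FPKM + 1), all groups of a table in 1 fit, with limma 3.58.1 (R 4.3.3), a mean-variance trend and Benjamini-Hochberg adjustment. The pseudocount of 1 understates changes of low genes. The fit was tested on simulated data. Ratios were tested by exact permutation over libraries, with no set direction, over 1680 splits. Python 3.11.15, pandas 2.3.3, numpy 2.4.6 and matplotlib 3.10.9 were used.

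The 4 genes, the gene lists and the tests were chosen with earlier results of these data known. Outside the 4 genes, text names paralogues reaching 5 FPKM in a group mean, for each other list and comparison the 2 steepest called rises and the 2 steepest called falls that reached 5 FPKM in one of both groups, and up to 4 genes of most similar pattern per member. Genes at 0 in a marker list are named as well. Alternatives tried were other pseudocounts, filters and scalings, a fit of only the compared groups, no mean trend, a minimum change of 1 (log2), a replicate block and leaving out each library. Sequences and positions are from RefSeq and GENCODE M21 on GRCm38.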

Additional observations from a re-analysis of the deposited data

How the results depend on the processing

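Of 588 recomputed log2 fold changes of the 4 genes, 563 are counted as kept, 19 lost the call, 3 gained it and 3 turned. Kept means the same side of the threshold, and a change of direction called in neither fit counts as kept. The 3 that turned did so with median-of-ratios scaling: Pou5f1 in 2CLCs against ESCs (0.27), and Pou5f1 (0.59) and Sox2 (0.0169) in 2CLCs against EpiSCs. That scaling moved the median of all genes in 2CLCs against ESCs from -0.46 to 0.02, and the calls from 3296 higher and 9220 lower to 6018 and 5301. In 2CLCs against EpiSCs the calls went from 3823 and 9605 to 6815 and 5917, at 60 mM from 3117 and 2474 to 2571 and 3026, at 80 mM from 3977 and 3064 to 3269 and 3913 and at 80 against 60 mM from 539 and 280 to 449 and 465. Sall4 in 2CLCs against ESCs gained the call with median-of-ratios scaling (1.18), in a fit of only the compared groups (0.42) and with EpiSC replicate 1 left out of the shared spread (0.42), which was chosen after seeing the data. Pou5f1 in EpiSCs against ESCs (-0.21) lost the call with no mean trend and in a fit of only those groups, and ranged from -0.27 to -0.10 when single libraries were left out. Pou5f1 in 2CLCs against EpiSCs (-0.29) lost it in a fit of only those groups, and Sall4 at 60 mM (0.15) with no filter. The cause was not tested.

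Requiring a log2 fold change of at least 1 in size beside the adjusted p (a cutoff on the estimate, not a test against 1) removed the calls of Pou5f1 (-0.50 in 2CLCs and -0.21 in EpiSCs against ESCs, -0.29 between 2CLCs and EpiSCs), of Sox2 in 2CLCs against EpiSCs (-0.83), and of all members at 60 mM (-0.14, 0.32, 0.26 and 0.15) and 80 mM (-0.13, 0.36, 0.30 and 0.24). It left 6385, 3398 and 6818 genes called in 2CLCs, EpiSCs and MEFs against ESCs, 8014 in 2CLCs against EpiSCs, 8748 in 2CLCs and 5884 in EpiSCs against MEFs, 232 at 60 mM, 573 at 80 mM and 6 at 80 against 60 mM. The last comparison had 819 calls, 241 with no filter and 360 to 491 without single libraries.

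Same-numbered replicates of the groups did not deviate together over all tested genes (correlations from -0.07 to 0.10). This cannot show whether libraries of the same number were prepared together, which the labels do not say. With a replicate block, limma changed no call of a member. For the ratios, the block leaves 216 permutations and a smallest p of 0.0278, and the 9 called ratios kept their differences and lost the call: 2.24, 3.05, 1.95, 2.84, 3.16 and 2.02 over the states and 0.49, 0.44 and 0.37 over the doses (adjusted exact permutation p from 0.0556 to 0.1). Leaving out single libraries gave 2.13 to 2.38 for Pou5f1 over Sox2 and 1.71 to 2.42 for Pou5f1 over Sall4 across the states, with the call lost in the cases given above. Of 336 recomputed list counts, 38 moved by over 1.5 times.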

Other observations

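The untreated ESCs of the cell-state table and the ESCs at 0 mM differ in the levels of the core factors, although both are given as WT. Sox2 stood at 131 ± 1.22 FPKM in the first and 185 ± 1.79 in the second, and Sall4 at 65.5 ± 2.77 and 98.6 ± 1.53 (SD, n = 3 each). Nanog stood at 277 ± 1.85 and 237 ± 8.94 FPKM, and Pou5f1 at 779 ± 3.40 and 739.7 ± 15.3. The 8 markers of 2CLCs summed to 8.14 to 8.62 FPKM in the first group and 54.3 to 58.4 in the second. The tables were normalized separately, so these levels were set side by side and not tested.

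EpiSC replicate 1 was also the highest EpiSC library for several paralogues. Sall1 stood at 18.2, 6.86 and 6.43 FPKM in EpiSC replicates 1 to 3, Sall2 at 28.2, 16.3 and 15.9, and Sox3 at 18.6, 8.96 and 10.1.

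Among 2CLC libraries, replicate 3 held the most Sox2 (24.8 FPKM, against 16.3 and 18.7) and the least Sall4 (77.9, against 91.8 and 95.9). It also held the most Sall1 (2.67 FPKM, against 1.35 and 1.58) and had the highest sum of 2CLC markers (24898 FPKM, against 21807 and 22420).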
